A study of Homo sapiens with 38 samples.

Results

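The regions described here are the binding sites of an isolated CTCF DNA-binding domain (DBD) that lay away from the Sp1-type peaks of 5 lists. They were chosen by absence of overlap, and a CTCF DBD peak was kept when it shared 0 bp with any peak of Sp1 WT, the Sp1 DBD or the EWS IDR-Sp1 DBD chimera (mouse anti-FLAG) and with any peak of endogenous Sp1 in the parental line (rabbit or mouse anti-V5). The anti-V5 lists of the induced lines did not enter the rule, and 11 members, some in repeated sequence, overlapped a peak in them. Of the 649 CTCF DBD peaks, 397 met this rule and 252 did not, and all 19 lists of the series together held 27085 peaks.

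CTCF is an insulator protein that binds DNA through a long array of zinc fingers and, together with cohesin, anchors chromatin loops. Most of its strong sites hold a conserved core motif that the central fingers read. Sp1 is a zinc finger activator of many promoters that binds GC boxes, and intrinsically disordered regions (IDRs) are the unfolded segments of transcription factors that lie outside such DBDs.

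CUT&RUN, in which an antibody directs a nuclease to its target so that the DNA beside it is released and sequenced, was done in the human osteosarcoma line U-2 OS. All groups carried a V5-Halo tag knocked in at endogenous SP1, all derived from 1 homozygous clone, and all were given 36 h of doxycycline (1 µg/mL), sorted, and, by the protocol, cultured with doxycycline for a further 36 h. The parental line carried no further transgene, while every other line held a doxycycline-inducible FLAG-tagged construct at the AAVS1 safe harbor locus: wild-type Sp1 (Sp1 WT), its DBD, a mutant Sp1 (Sp1 DBD Mutant), the EWS IDR-Sp1 DBD, the CTCF DBD, LacI, the Sp1 IDR joined to the CTCF DBD or to LacI, or SNAPf-NLS, a tag with a nuclear signal. By the paper, the other constructs were also fused to SNAPf and carried FLAG and nuclear signals at the C terminus. The 38 samples were 2 replicates of each of 19 pairs of line and antibody, and the authors merged the replicates of a pair into 1 list, so shares of peaks below carry 95% Wilson intervals that cover counting over peaks and not the spread between cultures. The peak lists hold no read counts, and the read numbers of the libraries were not used here.

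The sequences printed first were picked for an exact CTCF core and an overlapping peak of the Sp1 IDR-CTCF DBD chimera. They are not typical, since most members held no exact core. The first set has an exact CTCF core (12 bases, searched on both strands) within 100 bp of the summit and a peak of the Sp1 IDR-CTCF DBD chimera over the same place. The second holds the 4 strongest members over a chimera peak whose exact core lay farther from the summit, and was chosen after the values were seen. An exact core anywhere in the peak was found in 68 of 397 members (17.1%), and 15 of those overlapped a chimera peak. Coordinates are hg38, letters read 5′ to 3′ in the core's direction, and capitals mark the core.
DDX11L2 (chr2:113604117-113604176, minus strand): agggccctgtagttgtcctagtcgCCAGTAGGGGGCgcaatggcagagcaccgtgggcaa
CXXC1 (chr18:50287759-50287788, plus strand): cgctgcaaaCCAGTAGGTGGCcggcctaga
ENSG00000282994 (chr4:190203336-190203395, plus strand): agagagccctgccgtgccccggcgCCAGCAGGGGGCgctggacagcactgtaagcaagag
SSH2 (chr17:29931508-29931567, minus strand): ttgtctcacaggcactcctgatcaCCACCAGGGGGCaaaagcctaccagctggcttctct
ENSG00000291296 (chr15:77910536-77910595, plus strand): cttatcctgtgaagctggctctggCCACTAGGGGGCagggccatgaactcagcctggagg
DNM1P34 (chr15:75299389-75299448, minus strand): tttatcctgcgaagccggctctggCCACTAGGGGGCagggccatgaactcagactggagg
LINC00608 (chr2:218980191-218980250, plus strand): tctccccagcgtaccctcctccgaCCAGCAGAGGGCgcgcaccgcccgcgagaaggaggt
GPRIN2 (chr10:46565990-46566049, minus strand): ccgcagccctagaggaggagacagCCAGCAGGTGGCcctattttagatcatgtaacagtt

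Each name is the gene with the nearest transcription start in GENCODE 44. The ENSG00000291296 and DNM1P34 stretches differed at 4 of 60 bases. Of the 31-base words near the summits of these members, 29.2 and 100% were repeated elsewhere in hg38, so reads from such copies may not be told apart.

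For contrast, these are the 200 bases around the summit of the 3 strongest members with no exact core anywhere in the peak and no annotated untranslated region in that window. They are given on the plus strand, and capitals mark matches of an AP-1 site (TGANTCA). With 1 mismatch allowed, LZTS2 and COBL held a CTCF core within 200 bp of the summit but not within 100 bp. LINC01545 held none in its peak.
LZTS2 (chr10:101013075-101013274, plus strand): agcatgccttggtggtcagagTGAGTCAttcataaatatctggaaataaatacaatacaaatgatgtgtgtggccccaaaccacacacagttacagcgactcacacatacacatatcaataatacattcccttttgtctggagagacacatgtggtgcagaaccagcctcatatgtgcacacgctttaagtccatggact
LINC01545 (chrX:46903910-46904109, plus strand): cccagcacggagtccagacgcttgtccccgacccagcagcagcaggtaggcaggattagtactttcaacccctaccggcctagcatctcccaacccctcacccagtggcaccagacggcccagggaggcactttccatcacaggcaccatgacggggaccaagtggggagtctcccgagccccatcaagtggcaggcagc
COBL (chr7:51162957-51163156, plus strand): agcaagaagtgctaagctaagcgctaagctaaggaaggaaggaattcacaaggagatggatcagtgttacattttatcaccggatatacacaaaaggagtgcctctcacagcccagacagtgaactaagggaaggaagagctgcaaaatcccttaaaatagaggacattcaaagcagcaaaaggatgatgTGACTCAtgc

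Peak strength is given as the −log10 p that the authors' peak caller assigned in each replicate. Over the members, the first replicate ran from 6.95 to 33.2 with a median of 10.1, and the second from 11.3 to 60.6 with a median of 17.1. The second value was the higher in 383 of the 397 members, the values were equal in 4, and the first was the higher in 10. The merged value, by which members are ranked here, had the same range, quartiles and median as the first replicate. The strongest members are thus mainly those highest in the replicate with the lower values. Across members, Spearman's rho between the replicates was 0.390, which describes only peaks that passed the irreproducible discovery rate (IDR) threshold of 0.1. Members were 139 to 2444 bp wide (median 541 bp), and the other CTCF DBD peaks had a median width of 648 bp. Width bears on the chance of touching another list and so on the rule itself, and no test was made of it.

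**Figure D1:**
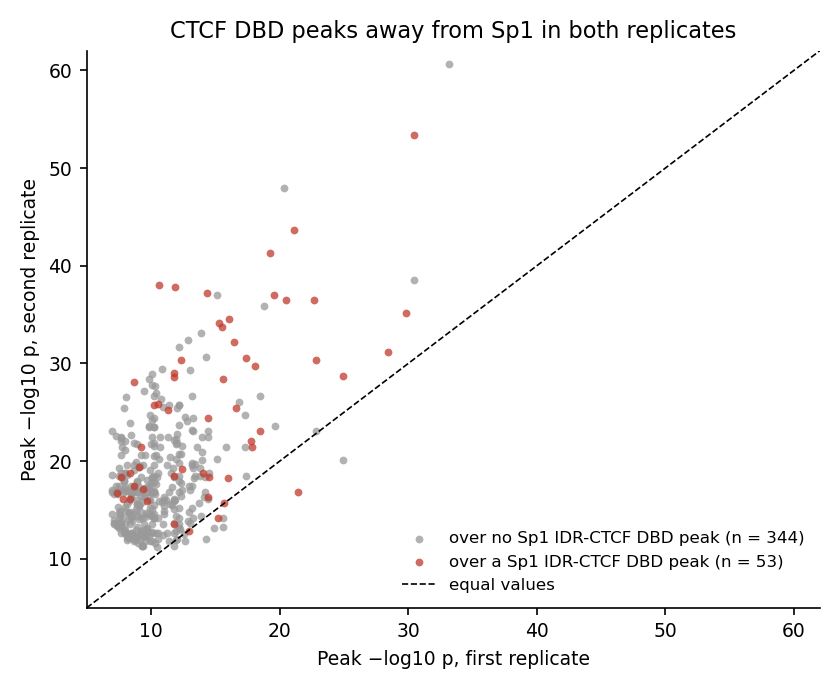
Peak −log10 p of each of the 397 members in the first (x axis) and second (y axis) replicate, with 1 point for each member and red points for the 53 that overlapped a peak of the Sp1 IDR-CTCF DBD chimera. Most points lie above the dashed line of equal values, since the second replicate was higher in 383 members.

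The strongest member lay in an intron of PDZD7 (chr10:101012738-101013763), 13367 bp from the nearest start, that of LZTS2, a leucine zipper tumor suppressor. Its −log10 p was 33.2 and 60.6 in the 2 replicates, and no chimera peak overlapped it. The next was an intergenic site on chromosome 15 (chr15:77910153-77910977), 5120 bp from the long noncoding RNA gene ENSG00000291296, with values of 30.5 and 53.4. In the chimera list the same site had 28.0 and 29.0. The site near the pseudogene DNM1P34 (chr15:75299023-75299600), its near copy, had 24.9 and 28.8, and 17.1 and 23.1 in the chimera list.

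The third strongest lay in an intron of LINC01297, 7873 bp from the pseudogene DUXAP10 (chr14:19344676-19346890), with values of 30.4 and 38.5 and no chimera peak. Every word of 31 bases near its summit is present more than once in hg38. An intergenic site 4307 bp from LINC01545 (chrX:46903652-46904493) had 29.8 and 35.2, with 11.6 and 16.2 in the chimera list. Introns of COBL, which encodes an actin nucleator, and of LINC02884 held members at 22.8 and 23.1 (chr7:51162674-51163342) and at 21.2 and 43.6 (chr1:112336957-112337547). The LINC02884 site was shared with the chimera (12.7 and 16.8) and the COBL site was not.

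Some of the strongest members sat at a transcription start. The member at RSAD1, a radical SAM family gene, lay 505 bp away (chr17:50478349-50479835), with 22.9 and 30.4, and 15.9 and 16.8 in the chimera list. The member at RN7SL3, a copy of the RNA of the signal recognition particle, lay 33 bp away (chr14:49852688-49854137), with 22.7 and 36.5, and 9.55 and 23.4 in the chimera list. In all, 7 of the 10 strongest members overlapped a chimera peak.

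At the weak end, the members with the highest global IDR lay 1064 bp from PAK6, a kinase gene (chr15:40274663-40275093, 7.13 and 13.6), 272 bp from MGRN1, a ubiquitin ligase gene (chr16:4624363-4624644, 7.13 and 13.7), and far from any start near LINC01691 (chr1:123597416-123597556, 9.27 and 11.3). The edge of the rule was narrow in bp. The nearest members to a Sp1-type peak were 165 bp away at VIM, the vimentin gene, 253 bp away on an unlocalized sequence of chromosome 1, and 389 bp away near ENSG00000285693. Just outside the rule, the smallest overlaps were 70 bp at ZFP91-CNTF, 125 bp at RRAGB and 135 bp near LINC01691. Over all members the median gap to a Sp1-type peak was 89869 bp, 17 members lay within 1000 bp of such a peak, and 5 had none on their sequence.

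Where the members lay relative to genes was the next question. A summit within 1000 bp of an annotated start was found for 167 of 397 members (42.1%, 37.3 to 47.0%) and for 191 of the 252 other CTCF DBD peaks (75.8%, 70.1 to 80.7%). The odds ratio was 0.232 (two-sided Fisher's exact test, adjusted p = 1.8e-16 over 11 tests). The Sp1 WT list itself had 83.9% of its peaks at starts, so that absence from it and distance from starts are linked by the rule, and the difference is no independent result. Positions placed every 100 kb along the chromosomes fell within 1000 bp of a start in 7.05% of cases. The LacI, SNAPf-NLS and Sp1 DBD Mutant lists had 0 of 225, 0 of 295 and 0 of 94 peaks there.

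Of the members, 135 (34.0%) lay at a start of a protein-coding gene, 32 (8.06%) at noncoding starts only, and 230 (57.9%) beyond 1000 bp of any start. Those at starts had a median distance of 153 bp, and 48 of the 167 lay at starts of more than 1 gene. Of the 230 distal members, 125 had an intergenic summit, 92 an intronic one, 5 one in an untranslated region, 4 one in coding sequence and 4 one in a noncoding exon. Their median distance to a start was 6900 bp, and 81 lay over 10000 bp away. Median GC content around the summit was 64.2% at protein-coding starts and 50.5% in distal members, and median widths were 615 and 471 bp. Median −log10 p was 10.1 and 10.2.

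In total 216 genes, of which 148 are protein-coding, started within 1000 bp of a member. That is 0.353% of the 61228 annotated genes and 0.739% of the 20020 protein-coding ones, and the other CTCF DBD peaks had 288 and 215 such genes (0.470 and 1.07%). Gene lists are described by count only, to be read beside these shares. None of 24 genes of the insulator and cohesin machinery, 49 imprinted genes, 60 clustered protocadherins, 322 spliceosomal small nuclear RNA genes and 18 immediate early and AP-1 genes had a member at a start. The other CTCF DBD peaks had 1 in these lists, at the imprinted gene PEG3. Among the 54 HOX genes there were 2, HOXA9 (chr7:27164385-27165765, 9.25 and 20.7) and the antisense gene HOXB-AS3 (chr17:48602295-48603155, 9.53 and 16.3). Both lay in clusters that specify position along the body axis, and neither overlapped a chimera peak.

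Of 99 histone genes, 2 had members, H4C15 (chr1:149860641-149861149, 14.3 and 37.2) and H4C14 (chr1:149832485-149833169, 11.9 and 22.2). These H4 genes stand in near-identical copies, all 31-base words around both summits were repeated, and the values of the pair are therefore uncertain. The H4C15 member was shared with the chimera (11.8 and 12.9). Of 85 ribosomal protein genes, RPL5 (chr1:92831526-92832253) had 9.87 and 23.5 with an exact core in its peak, and RPL3 (chr22:39316666-39316824) had 7.41 and 13.4. Of 516 KRAB and other zinc finger genes, ZNF256 (chr19:57947629-57947933) had 8.94 and 16.8 and ZNF131 (chr5:43064909-43065434) had 7.36 and 13.3. Of 18 bone and mesenchymal genes, VIM (chr10:17227690-17227889) had 9.03 and 14.1. The other CTCF DBD peaks lay at 5 zinc finger genes, 1 ribosomal protein gene, VIM, and 0 HOX or histone genes. With H4C15 the exception, none of the 9 members at listed genes overlapped a chimera peak.

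Other members at protein-coding starts, picked for their strength after the values were seen, included PPM1F, a phosphatase gene (chr22:21937890-21938846, 19.6 and 37.0), TPM1, a tropomyosin gene (chr15:63047939-63048690, 17.3 and 24.7), FADS1, a fatty acid desaturase gene (chr11:61815925-61817319, 16.6 and 25.4), and PPRC1, a transcriptional coactivator gene (chr10:102132459-102133054, 15.3 and 34.1). PPM1F, FADS1 and PPRC1 were shared with the chimera and TPM1 was not.

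Members were spread over all of chromosomes 1 to 22 and X. The most, 36, lay on chromosome 1. On chromosome 15, 24 of 25 CTCF DBD peaks (96.0%) were members, against 61.2% of all CTCF DBD peaks. Of those 24, 10 lay in repeated sequence, 12 were distal and 4 overlapped a chimera peak. These counts describe a chromosome singled out after the values were seen. Few members stood close together, and 10 lay within 10 kb of another.

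The CTCF core was examined next. It lay within 100 bp of the summit in 19 members (4.79%, 3.09 to 7.35%) and 6 other CTCF DBD peaks (2.38%, 1.1 to 5.1%), a difference that did not pass (odds ratio 2.06, Fisher's exact test, adjusted p = 0.24). Over all 649 CTCF DBD peaks the share was 3.85%. Equal windows placed 2000 bp from the members' summits, upstream and downstream, held it in 2 of 792 cases (0.253%), the starts of all 19970 protein-coding genes in 0.361%, and windows every 100 kb in 0.0653%. Over the whole peak, 68 members (17.1%, 13.7 to 21.1%) and 22 of the others (8.73%, 5.84 to 12.9%) held it, which passed (odds ratio 2.16, Fisher's exact test, adjusted p = 0.0053). The share per searched base was not tested. Flanks of the same width as each member held an exact core in 8 of 792 cases (1.01%). With 1 mismatch allowed, 179 members (45.1%) had a core in the peak, against 6.69% of the flanks.

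Exact cores seldom lay at the summit. In the 68 members with a core in the peak, its center was a median of 116 bp from the summit (quartiles 89.3 and 134 bp). Only 7 lay within 50 bp, 15 at 50 to 100 bp, 34 at 100 to 150 bp, 2 at 150 to 200 bp and 10 farther out. The same spacing was seen with the summits of each replicate. The median was 122 bp with those of the first and 109 bp with those of the second, and 31 members fell at 100 to 150 bp in either. Summits of the replicates were a median of 29 bp apart, and 331 of 397 (83.4%) lay within 100 bp of each other.

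Summits fell on both sides of the core. Read in the core's direction, 32 lay downstream (median 118 bp) and 36 upstream (median 116 bp). With 1 mismatch allowed, the 179 members with a core had a median of 118 bp, and 72 of them fell at 100 to 150 bp. The 22 other CTCF DBD peaks with an exact core had a median of 147 bp, and 10 of them (45.5%) lay at 50 to 150 bp, against 49 of 68 members (72.1%). This difference was not tested. In the chimera list, 29 peaks held an exact core, at a median of 81.5 bp. For comparison, the nearest GC box was a median of 105 bp from the summit in the 171 members that held it, with 43 within 50 bp, and 49.5 bp in the 4770 Sp1 WT peaks that held it. GC boxes are more frequent than cores, so these distances are not on the same footing.

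**Figure D2:**
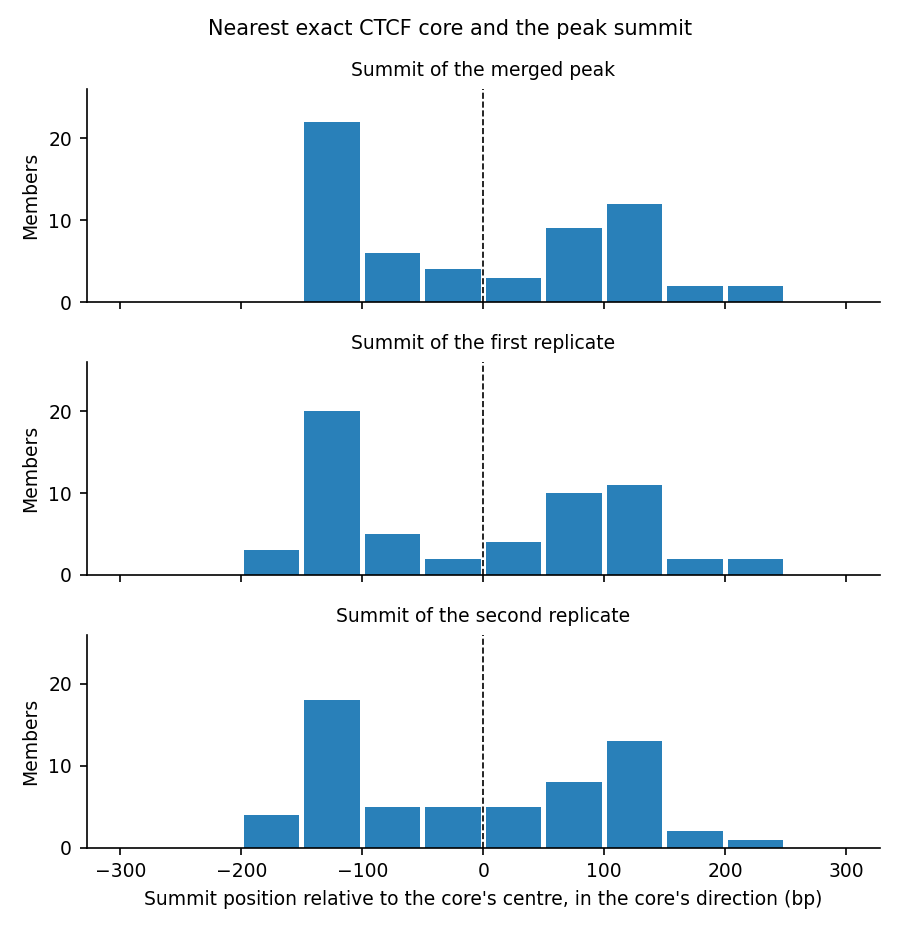
Position of the peak summit relative to the center of the nearest exact CTCF core, in bp along the core's direction, for the 68 members with a core in the peak. Bars count members in bins of 50 bp, with the summits of the merged peak, the first and the second replicate from top to bottom. In each panel the highest bars on either side lie at 100 to 150 bp from the core, and members beyond 300 bp are not drawn.

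Distal members held the core more often than those at starts when the whole peak was searched. The counts were 48 of 230 (20.9%, 16.1 to 26.6%) and 20 of 167 (12%, 7.89 to 17.8%), with an adjusted p of 0.040 in Fisher's exact test. Within 100 bp of the summit the shares were 4.78 and 4.79% (Fisher's exact test, adjusted p = 1). In repeated sequence, where at least 50% of the 31-base words around the summit occur more than once in hg38, lay 73 members (18.4%), of which 59 were distal, and 21 of the 68 members with a core in the peak. The comparison over whole peaks was not repeated without repeated sequence.

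GC boxes (GGGCGG) within 100 bp of the summit were found in 81 members (20.4%, 16.7 to 24.6%) and in 120 of the others (47.6%, 41.5 to 53.8%; odds ratio 0.282, Fisher's exact test, adjusted p = 2.7e-12). As with starts, removal of Sp1 sites by the rule is tied to this share. Flanking windows of members held it in 7.32%, protein-coding starts in 46.9% and windows every 100 kb in 2.86%. Among members it was found in 52 of 167 at starts (31.1%) and 29 of 230 distal ones (12.6%; odds ratio 3.13, Fisher's exact test, adjusted p = 3.0e-05). By whole peaks, 101 members held a core with at most 1 mismatch and no GC box, 93 a GC box only, 78 both and 125 (31.5%) neither.

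Motifs of other promoter factors were rare near the summit. AP-1 sites lay in 22 members (5.54%), against 5.43% of their flanks, and both LZTS2 and COBL among the strongest were in that number. CCAATCA, a form of the NF-Y box, was found in 9 members (2.27%; flanks, 1.52%) and the E-box CACGTG in 11 (2.77%; flanks, 2.27%). The YY1 motif AAGATGGCG lay in 3 members, the ETS motif CCGGAAGT in 2, the NRF1 motif GCGCATGCG in 1 and the CRE TGACGTCA in 0, where 3 counts of 397, the limit that a count of 0 allows, come to 0.756%. Protein-coding starts held these in 3.91% (AP-1), 5.83% (NF-Y), 5.88% (E-box), 2.05% (YY1), 4.52% (ETS), 1.88% (NRF1) and 1.87% (CRE), and windows every 100 kb in 5.97, 2.16, 1.71, 0.0721, 0.0996, 0.0034 and 0.0653%.

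**Figure D3:**
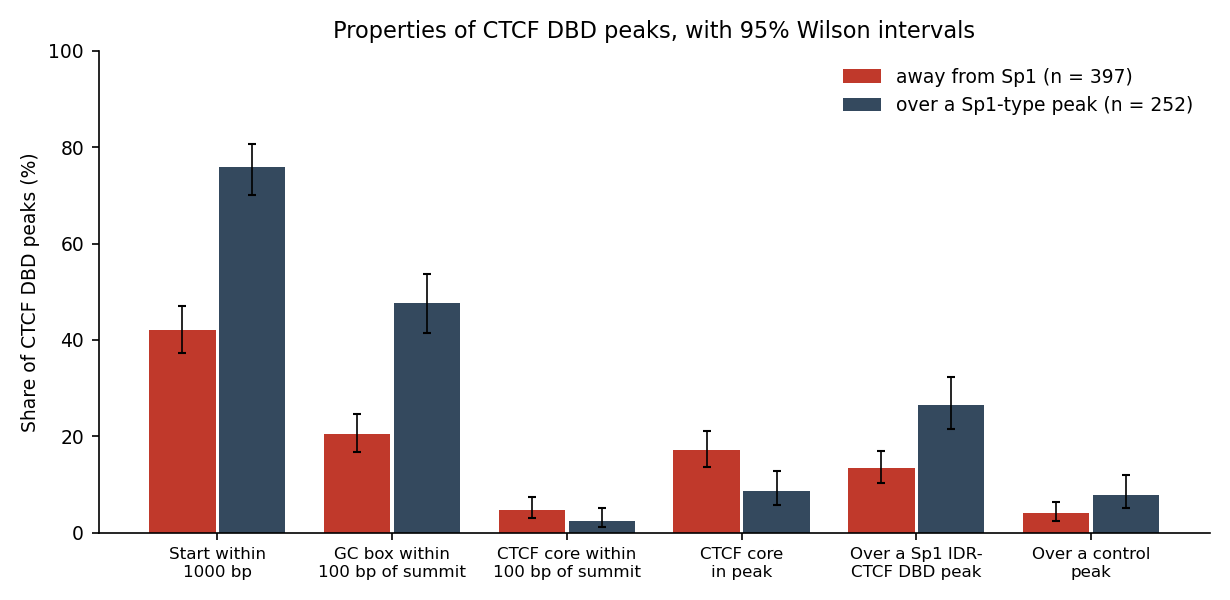
Share of CTCF DBD peaks (y axis, percent) with each property, for the 397 members (red) and the 252 other CTCF DBD peaks (dark), with 95% Wilson intervals. Members were lower for starts, GC boxes and overlap with the chimera, and higher for an exact core anywhere in the peak.

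Whether the chimera of the Sp1 IDR and the CTCF DBD was mapped at the same places was asked by overlap of at least 1 bp. Of the members, 53 (13.4%, 10.4 to 17.0%) overlapped a chimera peak, against 67 of the other CTCF DBD peaks (26.6%, 21.5 to 32.4%). The difference passed (odds ratio 0.425, Fisher's exact test, adjusted p = 8.5e-05), and 18.5% of all CTCF DBD peaks overlapped a chimera peak. Among peaks within 1000 bp of a start the shares were 16.2 and 26.2% (Fisher's exact test, adjusted p = 0.077), and beyond it 11.3 and 27.9% (adjusted p = 0.0061). At an IDR of at most 0.01 they were 39.7% of 73 members and 46.7% of the others, which did not pass (Fisher's exact test, adjusted p = 0.86). As a share of the chimera list, 53 of its 166 peaks (31.9%) overlapped a member. Of the 70 chimera peaks that themselves touched none of the 5 Sp1-type lists, 52 (74.3%) lay over a member. The number over any CTCF DBD peak, member or not, was also 52. Choosing chimera peaks away from these lists leaves few CTCF DBD peaks but members to overlap, so this share is tied to the rule. The share of all 166 chimera peaks over any CTCF DBD peak was not counted.

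Shared members were the stronger ones. Ranked by the −log10 p of the merged peak, the 99 highest members (12.2 to 33.2) had 33 over a chimera peak (33.3%, 24.8 to 43.1%), and the next 3 sets of 99 or 100 had 9.09, 5.00 and 6.06%. The exact core in the peak did not follow this order, with 17.2, 18.2, 17.0 and 16.2%. Median −log10 p was 14.4 in the 53 shared members and 9.98 in the other 344, and median widths were 637 and 532 bp. A place in repeated sequence was as frequent in both, at 18.9 and 18.3%.

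**Figure D4:**
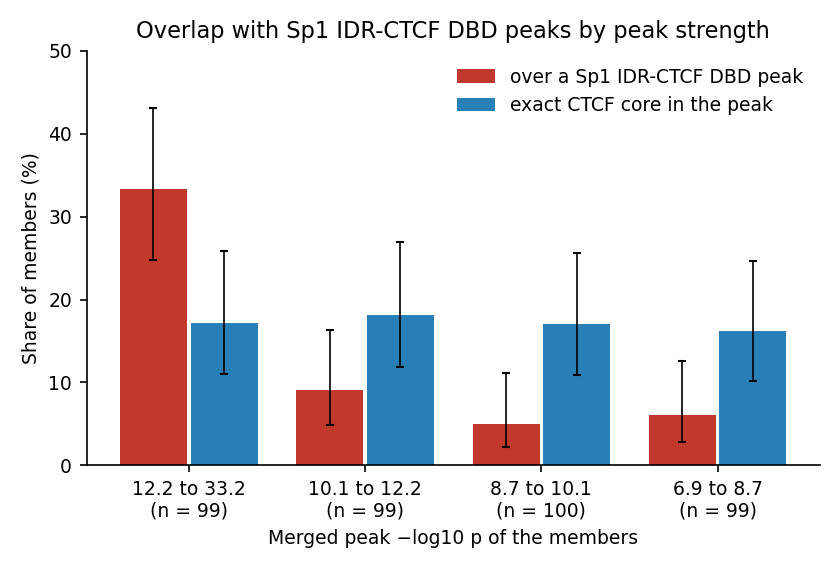
Share of members (y axis, percent) that overlapped a Sp1 IDR-CTCF DBD peak (red) or held an exact CTCF core anywhere in the peak (blue), for 4 sets of 99 or 100 members ranked by merged −log10 p (x axis), with 95% Wilson intervals. The chimera overlapped 33.3% of the strongest set and 5.00 to 9.09% of the rest, while the core stayed between 16.2 and 18.2%.

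Within the members, 5 of 19 with a core near the summit (26.3%, 11.8 to 48.8%) and 48 of 378 without (12.7%, 9.71 to 16.4%) overlapped a chimera peak, which did not pass (odds ratio 2.46, Fisher's exact test, adjusted p = 0.24). With the core anywhere in the peak it was 15 of 68 against 38 of 329 (22.1 and 11.6%, Fisher's exact test, adjusted p = 0.047), and with 1 mismatch allowed near the summit 14 of 53 against 39 of 344 (26.4 and 11.3%, adjusted p = 0.017). It did not pass within 200 bp (14 of 65 against 39 of 332, Fisher's exact test, adjusted p = 0.074) or within 50 bp (2 of 6 against 51 of 391, adjusted p = 0.29). Of 12 alternatives, 10 did not pass. Members at starts and distal members were shared in 27 of 167 (16.2%) and 26 of 230 cases (11.3%; Fisher's exact test, adjusted p = 0.25).

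The 5 members with a core near the summit and a chimera peak had 7.79 to 11.9 in the first replicate of the CTCF DBD list. The median over all members there was 10.1. In the second replicate, DDX11L2 and NBN lay above the upper quartile of 21.5 and the other 3 did not. The site 2879 bp from DDX11L2, a pseudogene (chr2:113603641-113604548), had 11.9 and 37.8, and 19.9 and 17.4 in the chimera list. That at NBN (chr8:89983921-89985062), which encodes a subunit of a DNA break repair complex, had its summit 21 bp from the start in an untranslated region, with 10.7 and 38, and 24 and 19.1 in the chimera list. That at CXXC1 (chr18:50287588-50287970), which encodes a CpG-binding protein, lay 60 bp from the start, with 9.66 and 16, and 16 and 11.7 in the chimera list. The site near the end of chromosome 4 (chr4:190203202-190203726), 7466 bp from ENSG00000282994, had 8.37 and 18.8, and 12.4 and 20.6. The last lay in an intron of EFCAB5, 1185 bp from SSH2, a cofilin phosphatase gene (chr17:29931327-29931633), with 7.79 and 16.1, and 15 and 15 in the chimera list. Values of separate lists rest on separate libraries, whose depths were not used here, and are given side by side only. The words around the summit were all repeated at ENSG00000282994, in 63.7% at DDX11L2 and in 0% at the other 3.

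Lists of lines without a CTCF DBD gave the background. The authors called peaks against merged control replicates, which may already lower such overlap, and this was not tested. The parental mouse and rabbit anti-FLAG lists, of only 22 and 54 peaks, overlapped 0 members and 0 of the other CTCF DBD peaks. The SNAPf-NLS list, of 295 peaks, overlapped 16 members (4.03%, 2.50 to 6.45%) and 20 of the others (7.94%, 5.20 to 11.9%). The difference did not pass (odds ratio 0.487, Fisher's exact test, adjusted p = 0.11). Over all CTCF DBD peaks the share was 5.55%. Of these 16 members, 15 lay in repeated sequence, and all 16 were distal. Among distal peaks alone the shares were 6.96 and 32.8% (Fisher's exact test, adjusted p = 4.9e-06), and without repeated sequence 1 of 324 members and 0 of 198 others overlapped these lists. By the rule, a background place that also held a Sp1-type peak was counted with the others. The control shares are thus tied to the rule, and the distal difference is no independent result. Of the 397 members, LacI overlapped 11, Sp1 IDR-LacI 7 and the Sp1 DBD Mutant 6. Of the 252 other CTCF DBD peaks, the same lists overlapped 12, 16 and 13, in that order. The differences for these lists were not tested.

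Endogenous Sp1 was mapped by anti-V5 in the induced lines, and these lists did not enter the rule. With rabbit anti-V5, 3 members overlapped a peak of the Sp1 IDR-CTCF DBD line (CXXC1, RNPEPL1 and ENSG00000269514) and 2 a peak of the Sp1 IDR-LacI line (RNPEPL1 and ABHD8). With mouse anti-V5 each line had 2, none in common (nearest to LINC01691 and on the unlocalized sequence of chromosome 1 in the first line, nearest to ENSG00000290989 and ENSG00000281904 in the second). These were named after their values were seen. The discordant members, 2 against 1 and 2 against 2, could not reach an exact binomial p below 0.25 and 0.125, so no difference could be shown (exact p = 1 in both). The Sp1 WT line had 1 member with rabbit and 3 with mouse anti-V5. Of the 397 members, 11 (2.77%) were over any of these 6 lists, against 110 of the other CTCF DBD peaks (43.7%) and 18.6% of all CTCF DBD peaks. The rule had already removed peaks over endogenous Sp1 in the parental line and over Sp1 WT, so it is tied to this low share, which is no independent result. Outside repeated sequence, mouse anti-V5 of the Sp1 IDR-CTCF DBD and Sp1 IDR-LacI lines overlapped 0 of 324 members, and rabbit anti-V5 still 3 and 2. The parental anti-FLAG and SNAPf-NLS lists overlapped 16 of all 397 members and 11 of the 386 over no anti-V5 list.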

How the data were processed

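CUT&RUN peak lists of 38 samples (2 replicates of 19 pairs of line and antibody) were used. Upstream steps were the authors' and, by their notes, used cutadapt 2.6 (adapters), Bowtie2 2.3.5.1 (alignment, hg38), SAMtools 1.9 (duplicate removal) and MACS3 (peaks of each replicate), before IDR ranked both replicates by p. By the paper, merged control replicates served as the control in peak calling. The −log10 p-values of merged peaks and of each replicate are those the authors deposited, and the lists do not name which replicate is the first. The score deposited by the authors is the −log10 of the global IDR, used only for thresholds. In addition, 6 deposited tables of the authors' own differential regions were not used.

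Overlap meant at least 1 bp (checked with bedtools 2.31.1). Motifs were searched with pysam 0.24.0 in hg38, and transcription starts came from GENCODE 44. Differences between shares were assessed with the two-sided exact test of Fisher (SciPy 1.17.1) with Benjamini-Hochberg adjustment over 11 tests and a threshold of 0.05. A p over peaks compares these lists, not cultures. Alternatives were IDR limits, gaps, overlap, motif windows and mismatches, start distances, list choice and, added after seeing the data, the 200 bp motif window, repeated sequence and splits by start. The code was tested on simulated data.

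The members, gene lists and tests were chosen with earlier results of these data known. Regions named are the 10 strongest members, those with a core within 100 bp of the summit over a chimera peak, those nearest the edge of the rule, those of highest IDR, and those at listed genes, and some of what this names is not reported here. Sequences are from hg38, were shortened to 30 bases in untranslated regions and were not printed for NBN.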

Additional observations from a re-analysis of the deposited data

How the results depend on the processing

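Differences below are in percentage points, the first set minus the second, with Fisher's exact tests and adjusted p against 0.05. Of 125 alternative values, 100 kept their direction and side of the threshold, among them all for transcription starts (11) and GC boxes in members against other CTCF DBD peaks (13). Both of these comparisons are tied to the rule, so their stability is no independent result. For the core near the summit at starts against distal members the difference was 0.0078, and its sign turned to -0.915 and -2.63 at IDR limits of 0.05 and 0.01, -0.158 with 50% overlap, -0.350 without control peaks, -0.142 on chromosomes 1 to 22 and X, -4.44 with 1 mismatch, -8.89 anywhere in the peak, -7.59 within 200 bp, -1.97 and -0.277 with starts at 500 and 5000 bp, -1.64 with protein-coding starts, -0.638 without members over anti-V5 lists and -0.172 without repeated sequence. Members against others for the core passed within 200 bp (10.8) and anywhere in the peak (8.40). Members with against without a core, for chimera overlap, passed with 1 mismatch (15.1) and anywhere in the peak (10.5). Chimera overlap of members against others no longer passed at an IDR of 0.01 (-6.94) or at starts only (-10.0). GC boxes at starts against distal members no longer passed at an IDR of 0.01 (14.1) or within 50 bp (6.82). Control overlap passed at an IDR of 0.05 (-5.47) and in distal peaks (-25.8), and turned to 0.309 without repeated sequence. It also passed when members over anti-V5 lists were counted with the other CTCF DBD peaks (-6.66, 11 of 386 against 25 of 263). That setting moves control peaks to the other side and does not only leave members out. The causes were not tested.

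No paired analysis was possible because each deposited list merges both replicates and leaves no replicate to omit. With few members over anti-V5 lists those tests say nothing of stability. Read numbers were not used here, so limits set by depth were not assessed.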
